A study of Mus musculus with 19 samples.

Results

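The 10 genes described here are Stab2, Gulp1, Xkrx, Cacna1e, Aqp3, Slc9a9, Adh1, Serinc2, Cspg5 and Fbxl21. They come from 18607 genes in the deposited expression table and were selected on their deposited levels, which were higher in ILCp than in EILP, so that difference is described below and not tested. The working name of the group, genes turned on in ILCp alone, held for some of them and not for others. Slc9a9 was expressed at every stage. Xkrx, Aqp3 and Stab2 were found in several earlier libraries, and 4 of the others at low levels in 1 to 3 earlier libraries. Adh1 and Cspg5 were at the zero level in all 14 ALP and EILP libraries and above it in all 5 ILCp libraries.

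The libraries came from progenitors sorted out of the bone marrow of C57BL/6 mice, at stages on the way to innate lymphoid cells. ALP (7 libraries) were lineage-low, Ly-6D-low cells with Kit, IL-7Ra and high Flt3. EILP (7 libraries) were lineage-low, Ly-6D-low, CD122-low and Thy-1.2-low cells with Kit, high GFP and intermediate or low IL-7Ra. ILCp (5 libraries) were lineage-low, Ly-6D-low and CD122-low cells with Kit, high GFP, Thy-1.2, high IL-7Ra and the integrin a4b7. All ALP and EILP libraries and ILCp 1, ILCp 2 and ILCp 3 were from Tcf7EGFP/+ mice, in which GFP reports Tcf7, and ILCp 4 and ILCp 5 were from Plzf-cre-GFP/+ mice, in which it reports the Plzf locus, so the gate on high GFP meant another gene in those 2 libraries. Every animal therefore carried 1 reporter allele, and no library came from mice without one. Thy1 and Il7r, 2 of the genes behind the sort, stood 5.23 and 4.58 log2 units higher in ILCp than in EILP. Itga4 and Itgb7, which encode the integrin a4b7, differed by only −0.62 and 0.15 between these stages. For Kit, Il2rb (CD122), Ly6d and Tcf7 the differences were 0.48, −0.53, 0.10 and −1.28. The labels do not say whether libraries of a stage came from separate animals or pools, so a p-value here reflects only how these libraries scatter, and that scatter may be technical.

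Innate lymphoid cells are lymphocytes without rearranged antigen receptors that settle in tissues and make cytokines. Their progenitors pass through a stage that depends on Tcf7. The 10 genes are not known as a pathway. Stabilin-2 (Stab2) and its adaptor Gulp1 act in the uptake of dying cells and of matrix components, and the XK-related family that Xkrx belongs to includes lipid scramblases. Cacna1e, Aqp3 and Slc9a9 move calcium, water with glycerol, and sodium against protons across membranes. Adh1 oxidises alcohols including retinol, Serinc2 belongs to a family named for bringing serine into membrane lipids, Cspg5 is a transmembrane proteoglycan, and Fbxl21 is the substrate-binding part of a ubiquitin ligase that acts on clock proteins.

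Sequence upstream of the transcription start is shown for 4 members, because they span the range from a gene expressed at every stage (Slc9a9) to genes at the zero level in some (Xkrx) or most (Aqp3 and Fbxl21) earlier libraries, and because these windows overlap no annotated exon. Each is the 250 bases before the RefSeq start (build GRCm38.p6), 5′ to 3′ in the gene's direction. For Xkrx, GENCODE M21 places the start elsewhere, at 134162076, downstream of the RefSeq start used here. Capitals mark matches, on either strand, to short runs of letters named for the factors that prefer them. These are CTTTGA for the TCF/LEF factors, AGATAA for the factors of the GATA family, AGGTCA for the ROR receptors, TGTGGT for Runx factors, AGGAAG for ETS factors, CAGCTG and also the similar CAGGTG for E proteins, and TATAAA for the core promoter element of that name.
Xkrx, chrX:134162960-134163209, minus strand: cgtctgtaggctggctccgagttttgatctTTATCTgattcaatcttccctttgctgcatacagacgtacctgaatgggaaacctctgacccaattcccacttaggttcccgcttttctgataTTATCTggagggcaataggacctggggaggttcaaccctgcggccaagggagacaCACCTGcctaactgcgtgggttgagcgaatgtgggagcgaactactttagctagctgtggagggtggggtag
Aqp3, chr4:41098184-41098433, minus strand: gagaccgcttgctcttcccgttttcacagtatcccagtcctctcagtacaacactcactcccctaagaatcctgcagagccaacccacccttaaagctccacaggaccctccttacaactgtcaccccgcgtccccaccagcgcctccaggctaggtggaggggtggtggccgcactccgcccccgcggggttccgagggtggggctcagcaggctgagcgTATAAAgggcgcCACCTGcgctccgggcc
Fbxl21, chr13:56522222-56522471, plus strand: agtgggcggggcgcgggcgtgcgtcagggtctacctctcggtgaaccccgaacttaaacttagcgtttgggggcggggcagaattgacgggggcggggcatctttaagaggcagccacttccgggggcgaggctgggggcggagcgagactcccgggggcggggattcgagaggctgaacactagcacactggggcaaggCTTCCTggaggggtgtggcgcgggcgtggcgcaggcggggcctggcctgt
Slc9a9, chr9:94669642-94669891, plus strand: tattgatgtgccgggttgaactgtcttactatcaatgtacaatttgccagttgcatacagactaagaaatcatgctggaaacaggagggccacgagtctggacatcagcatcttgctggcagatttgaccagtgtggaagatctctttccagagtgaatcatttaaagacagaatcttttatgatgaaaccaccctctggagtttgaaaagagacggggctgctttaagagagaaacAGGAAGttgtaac
Xkrx has the GATA letters 220 and 127 bases before the start and the E protein letters CAGGTG at 72. Aqp3 has the TATA box letters at 29 and CAGGTG at 17. Fbxl21 and Slc9a9 each have 1 match, the ETS letters, at 50 and at 13. None of these matches overlap each other.

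Of the 10 members, 9 had a window in the RefSeq promoter table, and Serinc2 had 3. A member was counted if any of its windows held the letters, while the shares are per window, so the units differ. The windows of Cacna1e, Adh1 and Serinc2 lie inside the GENCODE M21 bounds of these genes. The TCF/LEF letters were in the windows of 0 of 9 members, against 13.8% of all 32851 windows. The GATA letters were in 2 of 9 (Adh1 and Xkrx), against 9.99% of all windows. The ROR letters were in 1 of 9 (Stab2, 164 bases before its start), against 14.0%, and the Runx letters in 2 of 9 (Serinc2 and Stab2), also against 14.0%. The ETS letters were in 5 of 9 (Adh1, Fbxl21, Serinc2, Slc9a9 and Stab2), against 29.5%. CAGCTG was in 2 of 9 and CAGGTG in 3 of 9, against 13.0% and 17.2%, and TATAAA in 1 of 9, against 12.4%. The windows also differed in base composition. Fbxl21 had 69.2% G and C with 23 CpG dinucleotides and Slc9a9 42.8% with 3, beside medians of 52.4% and 6 over all windows. No single motif was therefore found in all 9, and a match is a run of letters and not a shown binding site.

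All levels are on the log2 CPM scale (read counts scaled to a common library total). The lowest level a gene could take was −4.96, or 0.0321 CPM, which is called the zero level here. The deposited values had been adjusted for sequencing batch, which moves a gene's zero by a different amount in each batch. For 9 of the 10 members (all but Slc9a9) the level before that adjustment could be recovered, as for 6203 of the 18607 genes, and those levels are used below to say where a gene was found. In each batch, 42.4% to 61.8% of recovered levels recurred exactly in other batches. Scaling each library by its own total alone would not give this, so levels appear to have been set to shared values. The size of a faint level may then depend on a library's share of genes at zero, which was not tested. Batch 3 consisted of EILP 3 and EILP 4 with no other stage, and the adjustment set the mean of that batch to the fitted EILP mean. As a result Serinc2 and Fbxl21 look absent from EILP in the deposited values while both were above zero in these 2 libraries before adjustment. Levels are not compared between genes, since they are not per length. In bulk samples, fewer cells of a type and less RNA per cell cannot be told apart.

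**Figure D1:**
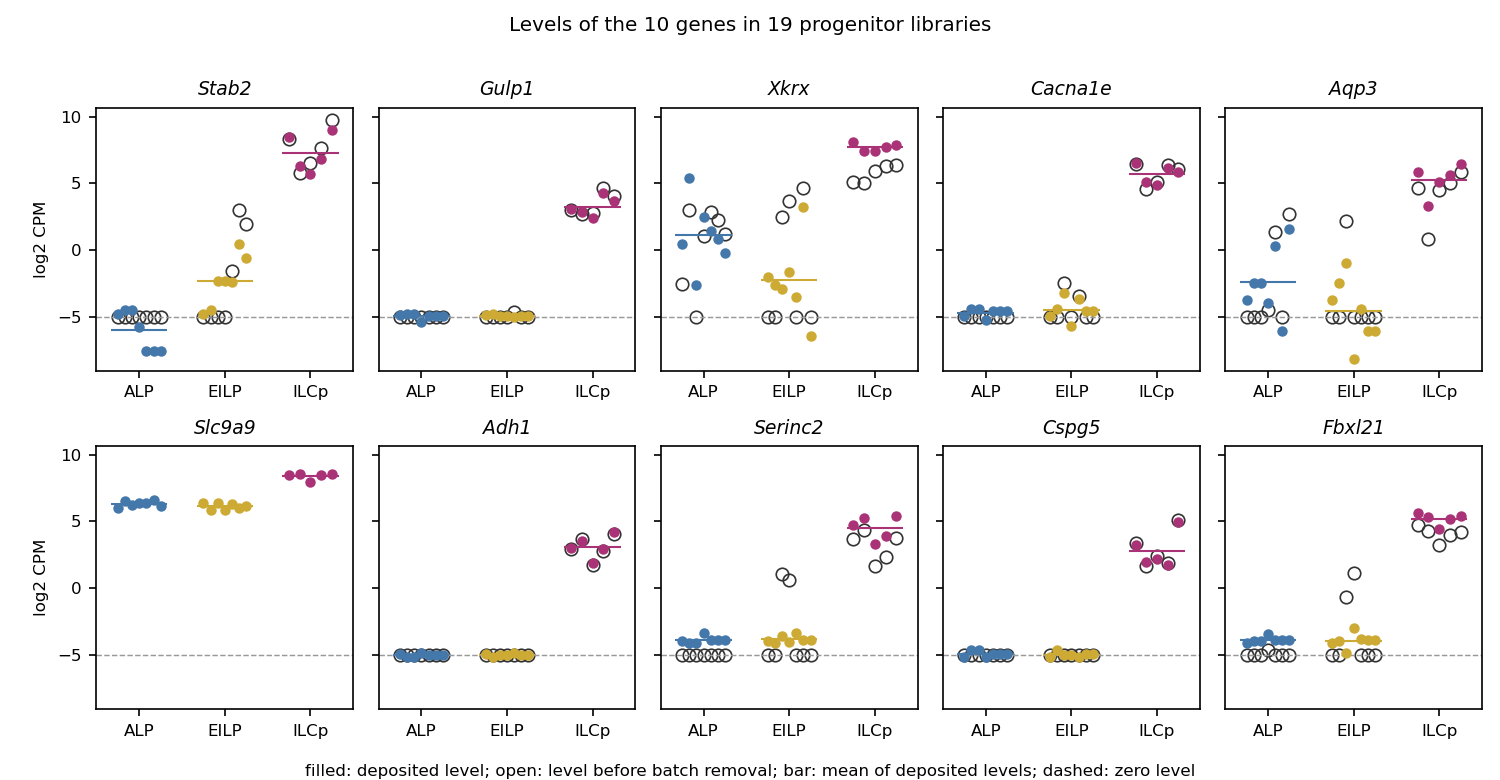
Level of each of the 10 genes (log2 CPM, vertical axis) in the ALP (7), EILP (7) and ILCp (5) libraries, left to right in replicate order. Filled points are deposited levels, open circles the levels before batch adjustment (9 genes), bars the group means of deposited levels and the dashed line the zero level of −4.96; the deposited ILCp levels lie above the other stages in every panel, the Aqp3 level of ILCp 2 before adjustment lies below those of EILP 3, ALP 5 and ALP 7, and Slc9a9 is the panel with no point near zero.

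In every one of the 10 genes the lowest deposited ILCp level lay above the highest EILP level, which was so for 3.35% of all genes, and above the highest ALP level as well, which was so for 1.70%. In the fit across all genes, 1.76% of genes were called higher and 1.46% lower in ILCp than in EILP, 3.21% in all (limma, adjusted p below 0.05). Since this contrast chose the members, nothing is read from their count against these shares. The counts of listed, marker and neighbouring genes given below for ILCp versus EILP are to be read beside them. Before batch adjustment, 8 of 9 members still separated ILCp from all other libraries, against 0.661% of the 6203 recovered genes. The exception was Aqp3. For the 9 genes with EILP libraries at or close to the zero level, the size of a fold change is set by that level, so no fold is given for them. The same holds for other genes where a stage lies near the zero level throughout, and where only some of its libraries do, the size printed depends on that level in part.

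Stab2 encodes stabilin-2, a scavenger receptor for hyaluronan and phosphatidylserine best known from sinusoidal endothelium. Before batch adjustment it was at the zero level in all 7 ALP libraries and in 4 of 7 EILP libraries, and EILP 5, EILP 6 and EILP 7 had −1.58, 3.03 and 1.98 log2 CPM. Its levels were 8.30, 5.75, 6.51, 7.62 and 9.75 log2 CPM in ILCp 1 to ILCp 5. The ILCp libraries did not overlap the others, and Stab2 was thus already present in 3 EILP libraries. Of 15 endothelial markers listed, 12 were in the table and their summed level was 126 to 220.5 CPM in ALP, 147 to 225.5 CPM in EILP and 144 to 174 CPM in ILCp. Pecam1, which averaged 7.27 ± 0.12 log2 CPM in ILCp and 7.43 ± 0.19 in EILP (SD, n = 5 and 7), made up most of that sum. Of the 11 others, whose levels before adjustment could be recovered, Cdh5, Kdr, Flt1, Flt4, Emcn and Clec4g were at zero in all 5 ILCp libraries, and Stab1, Vwf, Tek, Tie1 and Plvap were above zero in at least 1. Of the 12, 0 were called higher and 1 (Flt1) lower in ILCp than in EILP.

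Stab2 lies at chr10:86841198-87008025 on the minus strand (GRCm38, GENCODE M21). Its first part overlaps Gm16271, an antisense RNA gene on the other strand, and the next gene beyond that is 1700113H08Rik, a protein-coding gene of unstated function 50020 bases from Stab2. Deposited Gm16271 levels had a lowest, median and highest of −5.73, −5.34 and −3.04 log2 CPM in ALP and of −3.04, 0.23 and 1.64 in EILP, and were 6.34, 4.42, 4.32, 4.40 and 5.79 in ILCp 1 to ILCp 5. It was higher in ILCp than in EILP by 4.95 ± 1.16 log2 units (SE; limma adjusted p = 0.0305) and higher in EILP than in ALP by 4.99 ± 0.98 (adjusted p = 0.00549). Its level thus stepped up at both transitions. Most ALP libraries sat at tied lowest values, so the size of the earlier step depends on the zero level and is not compared with the later one. The call against EILP was lost when any of EILP 1, EILP 5, ILCp 1, ILCp 2 or ILCp 5 was left out (difference 3.62 to 5.52 over all 19 omissions, adjusted p up to 0.136, and 3.65e-07 to 0.189 over all settings).

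The gene beyond it passed the test at the earlier step and not at the later one. 1700113H08Rik had −5.12, −5.11 and −1.38 log2 CPM (lowest, median, highest) in ALP, −0.42, 2.43 and 3.76 in EILP, and 6.13, 5.57, 4.97, 5.34 and 6.28 in the 5 ILCp libraries. It was higher in EILP than in ALP by 6.76 ± 0.90 log2 units (adjusted p = 0.000219), and its difference between ILCp and EILP, 3.37 ± 1.07, did not pass (adjusted p = 0.105). Here too the size of the earlier difference depends on the zero level. The library kit does not mark strand, so reads where Stab2 and Gm16271 overlap cannot be assigned to 1 of them. 1700113H08Rik does not overlap either. Of the other annotated genes at this place, Gm16268, antisense to its last part, was at zero in all 5 ILCp libraries. Gm16270, a pseudogene inside Stab2, was at zero in all ALP and EILP libraries and in ILCp 1, ILCp 2 and ILCp 3, and had −3.49 and 2.00 log2 CPM in ILCp 4 and ILCp 5 before adjustment. Nt5dc3 differed between ILCp and EILP by −0.30 ± 1.24 log2 units.

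**Figure D2:**
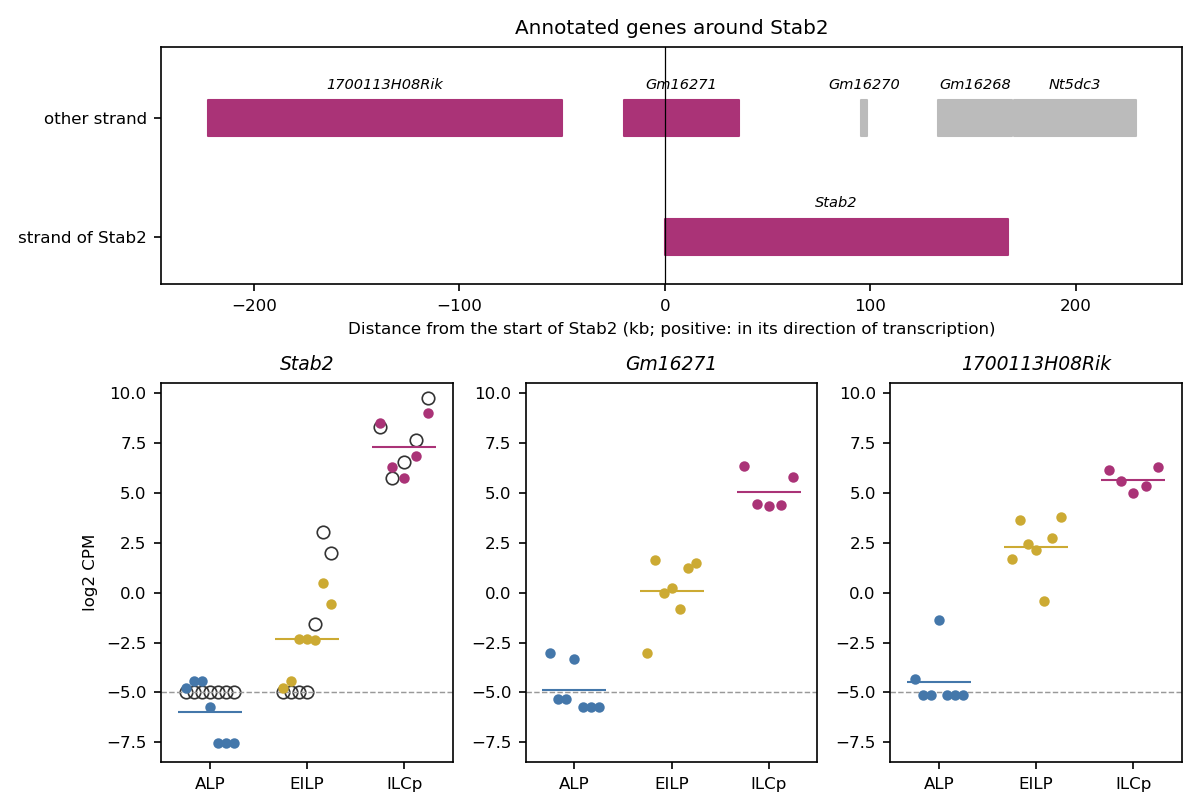
Top, annotated genes around Stab2 by distance from its start (kb, positive in its direction of transcription), with the 3 genes plotted below in colour. Bottom, levels of these genes (log2 CPM) by stage; points are deposited levels, open circles levels before batch adjustment (Stab2 only), bars means and the dashed line the zero level. Gm16271 and 1700113H08Rik are above their ALP levels in most EILP libraries, and for both genes every ILCp library lies above every EILP library.

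Gulp1 encodes the adaptor that binds the cytoplasmic tails of engulfment receptors such as stabilin-2 and LRP1. Before batch adjustment it was at the zero level in all 7 ALP libraries and in 6 of 7 EILP libraries, and EILP 5 was barely above it at −4.63 log2 CPM. Its ILCp levels were 2.98, 2.72, 2.81, 4.65 and 4.06 log2 CPM. All 5 ILCp libraries were thus far above every earlier library.

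Xkrx, at chrX:134149043-134162076, belongs to the XK-related membrane proteins, and its own function is less well known. Before adjustment it was above zero in 6 of 7 ALP libraries, at −2.49, 3.03, 1.07, 2.85, 2.25 and 1.21 log2 CPM in ALP 1, ALP 2 and ALP 4 to ALP 7. It had 2.46 log2 CPM in EILP 3, 3.68 in EILP 4 and 4.65 in EILP 6, and was at the zero level in the other 4 EILP libraries. In ILCp 1 to ILCp 5 it had 5.14, 5.05, 5.96, 6.31 and 6.40 log2 CPM. Xkrx was thus present in some libraries of both earlier stages and at zero in others, and EILP 6 came within 0.40 log2 units of the lowest ILCp library. Nox1, a gene annotated across Xkrx on the same strand, was at zero in 6 of 7 ALP, 7 of 7 EILP and 3 of 5 ILCp libraries.

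The genes known to work with these 3 in showing and clearing phosphatidylserine formed a list of 32, of which 28 were in the table. Of these, 2 were called higher and 0 lower in ILCp than in EILP, with a median difference of 0.26 log2 units beside −0.08 over all genes. Abca1, a lipid exporter, averaged 7.08 ± 0.34 log2 CPM in ILCp and 4.99 ± 0.59 in EILP (SD, n = 5 and 7), a difference of 2.08 ± 0.46 (SE; limma adjusted p = 0.0222). Xkr6, a relative of Xkrx, was called higher (adjusted p = 0.0163) at a mean of 0.28 ± 2.29 log2 CPM in ILCp and −4.93 ± 0.76 in EILP. Stab1, the paralog of Stab2, did not pass (−2.50 ± 1.19, adjusted p = 0.306), and neither did Lrp1 (3.07 ± 1.68, adjusted p = 0.385). The Abca1 call was lost without EILP 2, EILP 5, ILCp 1 or ILCp 2 (difference 1.86 to 2.46, adjusted p up to 0.0989, and 2.41e-07 to 0.277 over all settings) and the Xkr6 call without EILP 1, EILP 5 or ILCp 1 (adjusted p up to 0.0890, and 1.06e-07 to 0.133 over all settings).

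Cacna1e encodes the pore-forming subunit of the R-type voltage-gated calcium channel, known mainly from neurons and endocrine cells. Before adjustment it was at zero in all 7 ALP and 5 of 7 EILP libraries, and EILP 3 and EILP 5 had −2.47 and −3.46 log2 CPM. Its ILCp levels were 6.48, 4.58, 5.13, 6.35 and 6.05 log2 CPM. The 2 detected EILP libraries were near the floor and far below every ILCp library. Of 25 other calcium channel genes listed, 14 were in the table, and 0 were called in either direction between ILCp and EILP.

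Aqp3 encodes a water and glycerol channel found in epithelia, red cells and lymphocytes. Before adjustment ALP 4, ALP 5 and ALP 7 had −4.49, 1.40 and 2.71 log2 CPM and the other 4 ALP libraries were at zero. EILP 3 had 2.22 log2 CPM and the other 6 EILP libraries were at zero. ILCp 1 to ILCp 5 had 4.64, 0.81, 4.50, 5.06 and 5.87 log2 CPM. ILCp 2 therefore lay below 1 EILP and 2 ALP libraries, and the groups overlapped, although they did not in the deposited values. Of 10 erythroid markers all were in the table, and their summed level ranged widely in each stage, 2.28 to 139 CPM in ALP, 34.0 to 622 CPM in EILP and 14.7 to 781.5 CPM in ILCp, with 0 called in either direction between ILCp and EILP. Their part in the Aqp3 levels was not tested. Of 11 other aquaporin genes 4 were in the table, and 0 were called between ILCp and EILP.

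Slc9a9 encodes a sodium-proton exchanger of endosomes, and was the member expressed in all 19 libraries. The lowest, median and highest of its deposited levels were 6.03, 6.37 and 6.59 log2 CPM in ALP and 5.85, 6.12 and 6.39 in EILP. They were 8.50, 8.58, 7.98, 8.50 and 8.54 log2 CPM in ILCp 1 to ILCp 5. The EILP and ALP libraries overlapped, and ILCp stood apart from both. The ILCp level was 2.30 ± 0.20 log2 units above EILP (SE, all 19 libraries) and 2.09 ± 0.19 above ALP, and EILP differed from ALP by −0.21 ± 0.17. Within batches the ILCp minus EILP difference was 2.15 in batch 1, 2.74 in batch 2 and 2.03 in batch 4, each against 1 EILP library. Of the other sodium-proton exchanger genes, 12 of 15 listed were in the table, and 0 were called between ILCp and EILP.

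Adh1 encodes a class I alcohol dehydrogenase that oxidises ethanol and retinol. Before adjustment it was at the zero level in all 7 ALP and all 7 EILP libraries, and its ILCp levels were 2.94, 3.73, 1.73, 2.76 and 4.09 log2 CPM. All ILCp libraries were high and no earlier library was above zero. Of 34 other genes of alcohol and retinoid metabolism and signalling listed, 23 were in the table, and 2 were called higher and 1 lower in ILCp than in EILP. Aldh2, the mitochondrial aldehyde dehydrogenase, averaged 8.46 ± 0.20 log2 CPM in ILCp and 7.58 ± 0.20 in EILP, a difference of 0.88 ± 0.14 (limma adjusted p = 0.00312). Aldh2 was also lower in EILP than in ALP (8.69 ± 0.09 log2 CPM), with a difference of −1.11 ± 0.12 (adjusted p = 2.58e-05).

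The retinoid receptor Rxrg was already on in EILP, in contrast to Adh1. It averaged −5.02 ± 0.53 log2 CPM in ALP, 6.20 ± 0.70 in EILP and 8.56 ± 0.73 in ILCp (SD, n = 7, 7 and 5), and the 2.36 ± 0.60 between ILCp and EILP just passed (adjusted p = 0.0449). Adh5, the class III enzyme and the next gene beyond Adh1 on chromosome 3 in the table, was lower in ILCp, at 7.62 ± 0.16 log2 CPM against 8.08 ± 0.05 in EILP (−0.46 ± 0.12, adjusted p = 0.0444). Both calls were borderline. The Rxrg call was lost without any of 8 libraries (EILP 1, 2, 5 and 6 and ILCp 1, 2, 4 and 5; difference 1.83 to 2.59, adjusted p up to 0.153, and 8.83e-07 to 0.586 over all settings). The Adh5 call was lost without any of 9 (ALP 2, EILP 1, 2, 5, 6 and 7 and ILCp 1, 2 and 3; difference −0.50 to −0.38, adjusted p up to 0.155, and 7.29e-07 to 0.606 over all settings).

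Serinc2, a membrane protein of the serine incorporator family, was at zero before adjustment in all 7 ALP and 5 of 7 EILP libraries, and EILP 3 and EILP 4 had 1.06 and 0.61 log2 CPM. ILCp 1 to ILCp 5 had 3.73, 4.33, 1.70, 2.35 and 3.79 log2 CPM. ILCp 3 was only 0.64 log2 units above EILP 3, so the groups came close without overlapping. The 4 other Serinc genes were all in the table and 0 were called between ILCp and EILP.

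Cspg5, a chondroitin sulphate proteoglycan with an EGF-like domain known from the nervous system, was at zero in all 7 ALP and all 7 EILP libraries and had 3.40, 1.65, 2.41, 1.91 and 5.12 log2 CPM in ILCp 1 to ILCp 5, before adjustment. Like Adh1 it was found in all ILCp libraries and in no earlier one. This pattern, above zero in all 5 ILCp and at zero in all 14 others, was shared by 4 of the 6203 recovered genes, or 0.0645%, the others being Gm973 and Gm12349. ILCp 5 was the highest for Cspg5 by 1.73 log2 units. Of 14 genes of related proteoglycans and of ErbB receptors and ligands listed, 7 were in the table and 0 were called between ILCp and EILP.

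Fbxl21 encodes an F-box protein that binds cryptochromes, the repressors of the circadian clock. Before adjustment ALP 4 had −4.63 and EILP 3 and EILP 4 had −0.64 and 1.17 log2 CPM, and the other 6 ALP and 5 EILP libraries were at zero. ILCp 1 to ILCp 5 had 4.73, 4.29, 3.24, 3.96 and 4.24 log2 CPM. No earlier library reached the lowest ILCp level. Of 26 other clock genes listed 25 were in the table, with 1 called higher and 1 lower in ILCp than in EILP and a median difference of 0.78 log2 units beside −0.08 over all genes. Cry1, a cryptochrome, averaged 6.73 ± 0.24 log2 CPM in ILCp and 5.80 ± 0.20 in EILP (0.93 ± 0.22, adjusted p = 0.0351). Nfil3, a repressor needed early in the innate lymphoid lineage, averaged 5.83 ± 0.73 log2 CPM in ILCp and 8.19 ± 0.09 in EILP (−2.36 ± 0.40, adjusted p = 0.00501). The Cry1 call was lost without any of EILP 1, 2 and 5 and ILCp 1, 2 and 5 (difference 0.75 to 1.06, adjusted p up to 0.103, and 4.26e-07 to 0.464 over all settings).

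Over the 8 lists together, 117 of 161 listed genes were in the table. Of these 5 were called higher and 2 lower in ILCp than in EILP, where 1.76% of all genes were called higher and 1.46% lower. The median difference was 0.33 log2 units beside −0.08 over all genes. Between EILP and ALP, where 2.25% of all genes were called higher and 2.79% lower, 8 of the 117 were higher and 5 lower in EILP. Rxrg and Nfil3 were among the higher ones, Nfil3 by 2.96 ± 0.34, and Aldh2 among the lower ones. A further 2 genes are named from that comparison, chosen after their values were seen. Megf10, an engulfment receptor, was called higher in EILP, at 5.45 ± 0.63 log2 CPM, than in ALP, at −5.03 ± 0.43 (SD, n = 7 each; adjusted p = 6.02e-08), and its difference between ILCp and EILP was within its error (−0.44 ± 0.74, adjusted p = 0.827). Lrp1, another receptor that Gulp1 binds, was lower in EILP than in ALP, with a difference of −6.53 ± 1.42 log2 units (adjusted p = 0.0113), a call lost without EILP 2 or EILP 7 (difference −8.02 to −5.26, adjusted p up to 0.0574, and 0.000152 to 0.0574 over all settings). With 1 library left out, the number of listed genes called higher in ILCp was 2 without EILP 1, EILP 2 or ILCp 1, 1 without EILP 5 and 3 without ILCp 5, and the number called lower was 1 without ALP 2, EILP 1, 2, 5, 6 or 7 or ILCp 1, 2 or 3. Without both Plzf-cre-GFP libraries 1 gene, Aldh2, was called higher in ILCp. The number called lower in EILP than in ALP was 3 without ALP 1, ALP 5, ALP 7, EILP 2, EILP 5 or EILP 7.

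Between EILP and ALP, 5.05% of all genes were called in either direction (limma, adjusted p below 0.05). For the members this step is given as levels, since it shares the EILP libraries with the contrast that chose them. In 0 of 10 members did the deposited levels of EILP and ALP separate, against 4.74% of all genes. Before adjustment Xkrx was above zero in 3 of 7 EILP and 6 of 7 ALP libraries, Aqp3 in 1 of 7 EILP and 3 of 7 ALP libraries, and Stab2 in 3 of 7 EILP and 0 of 7 ALP libraries. The remaining 6 of the 9 were above zero in at most 2 EILP and 1 ALP libraries.

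The low detections were spread unevenly over libraries. EILP 3 had 5 of 9 members above zero, EILP 4, EILP 5 and ALP 4 had 3 each, and ALP 3, EILP 1 and EILP 2 had 0. All 5 ILCp libraries had 9 of 9. The share of the 6203 recovered genes at the zero level, a measure of how many faint genes a library picked up, was 55.3% to 86.7% in ALP, 55.6% to 84.7% in EILP and 53.7% to 81.5% in ILCp, so the stages overlapped on it. EILP 5 and ALP 4, the EILP and ALP libraries with the fewest genes at zero (55.6% and 55.3%), held the barely detected levels of Gulp1 and Fbxl21. Among the libraries with the most genes at zero, ILCp 2 (81.5%) had 9 members above zero, EILP 6 (81.3%) 2, EILP 7 (82.2%) 1, EILP 1 and EILP 2 (84.7% each) 0, ALP 3 (82.8%) 0 and ALP 7 (86.7%) 2. The members were chosen for higher levels in ILCp than in EILP, so these counts follow in part from that choice. The part of the share at zero in them was not tested.

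Markers of other cell types were also compared between ILCp and EILP, where 1.76% of all genes were called higher and 1.46% lower. Of 14 ILC2 markers in the table, 5 were called higher in ILCp (Areg, Icos, Gata3, Ccr8 and Il2ra) and 0 lower. The summed level of the 14 was 10.2 to 40.7 CPM in ALP, 335 to 620 CPM in EILP and 1907 to 4877 CPM in ILCp. Gata3 and Rora had the highest ILCp means of the 14, 10.06 and 9.98 log2 CPM, and weigh most in that sum. Both were already higher in EILP than in ALP, by 5.55 ± 0.39 and 7.33 ± 0.94 log2 units (SE). Rora was not called between ILCp and EILP (2.99 ± 1.11, limma adjusted p = 0.172). Il5, Klrg1 and Ptgdr2 averaged −4.01, −3.25 and −1.72 log2 CPM in ILCp and were not called. Of 9 stromal markers 3 were called lower in ILCp (Pdgfrb, Col1a1 and Col1a2), with a sum of 58.7 to 149 CPM in ALP, 91.5 to 1552 CPM in EILP and 20.3 to 51.0 CPM in ILCp. Of 10 neutrophil markers 2 were called lower (Mpo and Prtn3), with a sum of 491 to 5369 CPM in ALP, 1614 to 41170 CPM in EILP and 89.4 to 1526 CPM in ILCp. The macrophage, mast cell and basophil, mature T cell and B lineage lists had 0 calls in either direction. The called ILC2 markers thus moved in the same direction as the members, and the part of these lists in the members' levels was not tested.

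**Figure D3:**
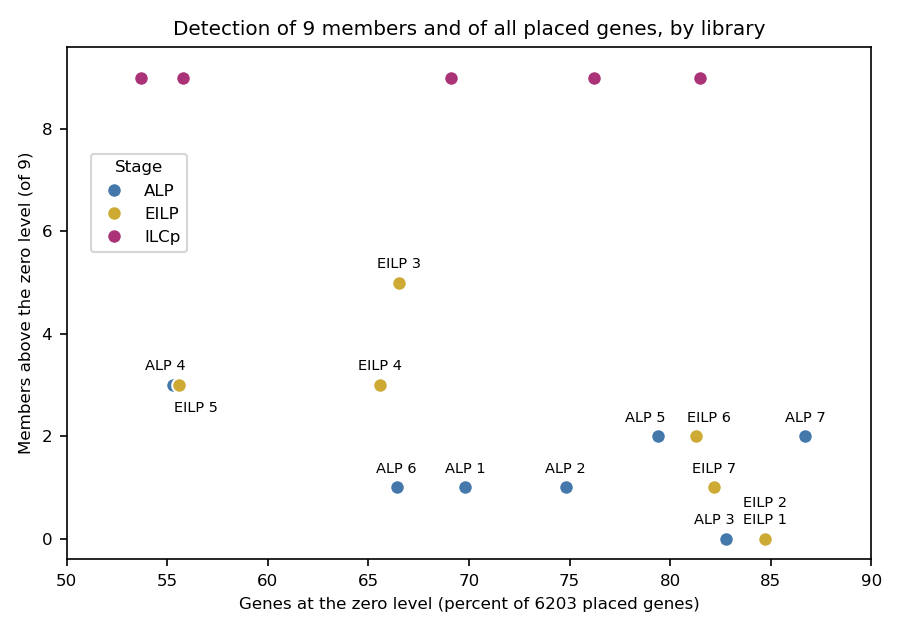
Each point is a library; the horizontal axis is the percent of the 6203 recovered genes at the zero level and the vertical axis the number of 9 members above it. The 5 ILCp libraries sit at 9 from 53.7% to 81.5%, and the ALP and EILP libraries at 0 to 5 over the same range and beyond. The members were chosen for their rise from EILP to ILCp, so the gap between these stages follows in part from that choice.

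Among the ILCp libraries the 2 reporter strains could be compared, a contrast that played no part in the choice of members. In ILCp from Plzf-cre-GFP/+ against ILCp from Tcf7EGFP/+ mice, 12 genes were called higher (0.0645%) and 2 lower (0.0107%), 0.0752% of all genes together, and 0 of 10 members were called (limma; 0 of 10 also at an unadjusted p below 0.05, which 4.54% of genes passed). The estimates were positive for 10 of 10 members, against 49.9% of all genes. They ran from 0.19 ± 2.62 log2 units in Xkrx to 1.63 ± 2.62 in Aqp3 (SE, n = 2 and 3), with adjusted p = 1 for all 10. The most precise was Slc9a9, at 0.21 ± 0.29, and for Gulp1, with 1.46 ± 0.87, the deposited levels were 4.25 and 3.67 log2 CPM in the 2 Plzf-cre-GFP libraries, against 3.11, 2.88 and 2.42 in the 3 Tcf7EGFP libraries. Gulp1 thus had its 2 highest values in the Plzf-cre-GFP libraries, a difference that did not pass the test. The signs of the 10 estimates do not count separately, since they share ILCp 3, which was low for most members, as described below. The share of positive estimates among genes called higher in ILCp than in EILP was not computed.

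ILCp 3 was the only Tcf7EGFP library sequenced in the same batch as the Plzf-cre-GFP ones, and its levels of the members were low. It was below both ILCp 4 and ILCp 5 in 9 of 10 members, which was so for 26.6% of all genes and for 62.7% of the 327 genes called higher in ILCp than in EILP. It was the lowest of all 5 ILCp libraries in 8 of 10 members, against 23.2% of all genes and 41.6% of those 327. ILCp 5 was the highest in 5 members and ILCp 1 in 3. Library and reporter cannot be told apart within that batch, where there is 1 Tcf7EGFP library.

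**Figure D4:**
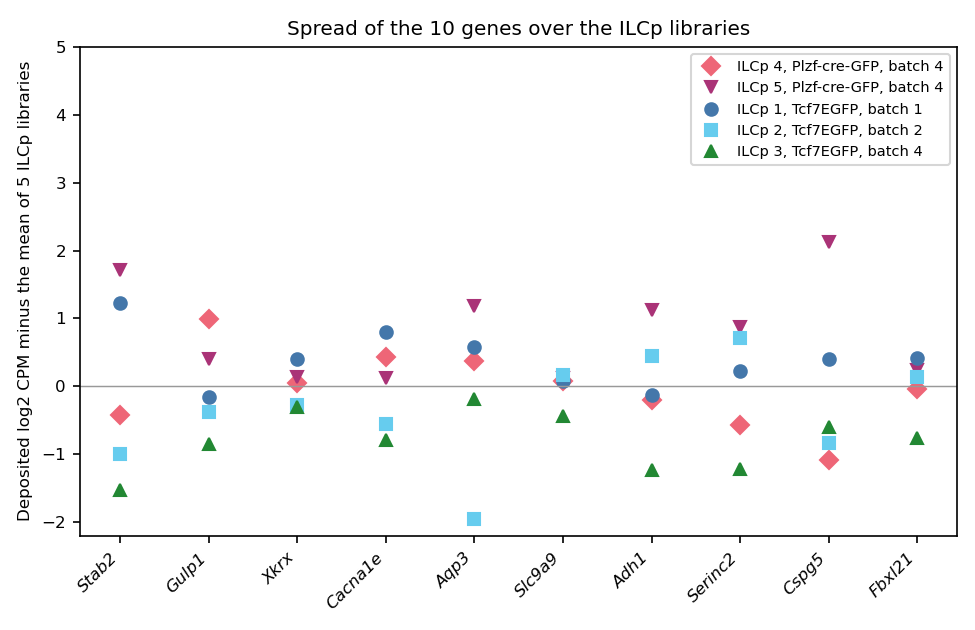
Deposited level of each of the 10 genes in each ILCp library minus the mean of the 5 ILCp libraries (log2 CPM units). Symbols are libraries, with reporter and sequencing batch in the legend; ILCp 3 is lowest for 8 genes, ILCp 2 for Aqp3 and ILCp 4 for Cspg5.

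The profiles of the members over the 19 libraries were described by their Pearson correlation with the mean of all 10 standardised profiles, to which each contributes. It ran from 0.994 for Adh1 and Serinc2 to 0.916 for Stab2, 0.883 for Aqp3 and 0.847 for Xkrx. Outside the 10, the 8 genes most like that mean were Gm973 (0.994), Gm12349 (0.985), Gm17477 (0.973), Cmtm6 (0.962), Ctsd (0.960), A130023I24Rik (0.956), Itm2b (0.952) and Gclc (0.952). The points share the 5 ILCp libraries, so these values mostly reflect the difference between ILCp and the earlier stages.

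Some of these 8 behaved like Adh1 and others like Slc9a9. Gm973 and Gm12349 were at zero in all 14 earlier libraries, with 2.51 to 4.56 and 0.10 to 3.36 log2 CPM in ILCp. Gm17477 was above zero in ALP 4 alone of the earlier ones (−4.49), and A130023I24Rik in EILP 3 alone (1.82). Cmtm6, a stabiliser of PD-L1 at the cell surface, had a deposited level of 8.80 to 9.39 log2 CPM in ILCp and 7.78 to 8.15 in EILP. Gclc, the catalytic subunit of the enzyme that limits glutathione synthesis, had 8.04 to 9.97 log2 CPM in ILCp and 5.95 to 6.54 in EILP. Ctsd, a lysosomal protease, had 9.41 to 9.77 in ILCp and 8.72 to 8.93 in EILP, and Itm2b, a membrane protein, 10.98 to 11.49 in ILCp and 10.22 to 10.37 in EILP. Their ranges did not overlap, and the 4 genes were expressed at each stage.

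The chromosomal neighbours of the members mostly did not follow them. Of 25 genes that overlap a member or are the nearest in the table on either side, 1 (Gm16271, described with Stab2) was called higher and 1 (Adh5) lower in ILCp than in EILP. Of all genes 1.76% were called higher and 1.46% lower. The count of neighbours was 0 higher when EILP 1, EILP 5, ILCp 1, ILCp 2 or ILCp 5 was left out and 2 without ALP 4, and 0 lower without each library whose omission ended the Adh5 call. Between EILP and ALP 3 neighbours were called higher and 0 lower, all of them named here. They were Gm16271, 1700113H08Rik and Chst2, a sulphotransferase 168847 bases beyond Slc9a9, which was 5.02 ± 1.36 log2 units higher in EILP than in ALP (adjusted p = 0.0442), a call lost in 16 of 19 single omissions (difference 4.09 to 6.56, adjusted p up to 0.161, and 0.00124 to 0.161 over all settings). Chst2 differed between ILCp and EILP by 0.70 ± 1.61 (adjusted p = 0.881). Gm29395, the nearest gene on the other side of Slc9a9, at 1091 bases, and Mir7656 within it were not called at either step.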

How the data were processed

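Per the labels' protocols, RNA from sorted cells was purified with the RNeasy plus micro kit, amplified with SMARTer Ultra Low Input v3 and made into libraries with Nextera XT, a chemistry that does not mark strand. The submitters' processing notes list STAR 2.4.0h, bcl2fastq 1.8.4, limma and edgeR, with mm10 as the build. Not given in the sources used here are the annotation and the way reads were counted. The deposited values are log2 numbers for 18607 genes in 19 libraries, which the values show to be log2 CPM (they sum to 908573 to 1035204 CPM per library) adjusted by the authors for 5 batches with the 3 groups kept; no header or label records these steps. Total counts are unknown, so no counting interval is given. No pair of libraries was identical over all genes, and pairwise correlations over the genes above a set mean level ranged from 0.376 to 0.904.

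A gene's zero level in a batch was taken from values tied within it. In 2423 of 2426 genes with such ties in all 5 batches these zeros averaged −4.96 log2 CPM. Levels before adjustment were computed by subtracting a batch's zero and adding −4.96, for 4605 genes with a zero in every batch and 1598 with a zero in 4, where the fifth followed from offsets that sum to 0 (Serinc2, Fbxl21 and Xkrx in batch 3). Of the levels so recovered in a batch, 42.4% to 61.8% recurred in other batches (tolerance 1e-06), against at most 0.0765% after a shift of 0.003. So exact a recurrence does not follow from scaling by library totals alone, and no header or label records a further normalization. The procedure and the fit were tested on simulated data.

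Stages were tested by limma 3.58.1 under R 4.3.3, as moderated two-sided tests with a mean-variance trend, on the deposited values of all 19 libraries, with groups and batch as fixed effects and Benjamini-Hochberg adjustment over all genes at 0.05. ILCp was divided by reporter (2 Plzf-cre-GFP, 3 Tcf7EGFP) for that contrast. Errors of levels are SDs and errors of differences standard errors. Genes were placed with GENCODE M21 (17377 of the 18607 symbols matched), and promoters came from RefSeq. The members and lists were chosen with earlier results of these data known. Named genes were the members, up to 2 rising and 2 falling genes of each list that passed in ILCp versus EILP, neighbours that passed and the 8 genes most like the members. Names outside this rule were chosen after their values were seen. They are Megf10, Lrp1, Stab1, Nox1, Nt5dc3, Gm16268, Gm16270, Gm29395, Mir7656, Thy1, Il7r, the other genes behind the sort and the markers named. Other settings tried were the batch term, a replicate block, the libraries fitted, scaling, a filter on low levels, the variance model and a fold threshold.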

Additional observations from a re-analysis of the deposited data

Results flagged for a closer look

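Levels of the 10 genes and of Gm16271 and 1700113H08Rik were searched for single libraries far from the rest of their stage, in 28 pairs of a gene and a stage (8 more pairs were at the zero level throughout). In 6 of them 1 library stood apart. Chance alone gives about 1 in 20 for values without ties, a rate that does not apply where values are tied. In 3 of the 6 (Aqp3 in EILP 3, Gulp1 in EILP 5 and Fbxl21 in ALP 4) all other libraries of the stage were tied at the zero level. Any detection stands apart there. Aqp3 in ILCp 2 was 0.813 log2 CPM before batch adjustment, with the next ILCp library at 4.50, and it is the value that brings ILCp into overlap with the earlier stages. Aqp3 in EILP 3 was 2.22 log2 CPM while the other 6 EILP libraries were at −4.96. Slc9a9 in ILCp 3 was 7.98 log2 CPM, with the next at 8.50. Gulp1 in EILP 5 and Fbxl21 in ALP 4 were each at −4.63 log2 CPM, barely above the −4.96 of the other libraries. 1700113H08Rik in ALP 4 was −1.39 log2 CPM, with the next ALP library at −4.35.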

How the results depend on the processing

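Undoing the batch adjustment (an alternative added after seeing the data, as was leaving out batch 3) moved single levels of the members by several log2 units, for Serinc2 in EILP 3 to 1.06 from a deposited −3.58, and for Xkrx in EILP 4 to 3.68 from −1.65. ILCp and EILP did not overlap in 10 of 10 members as deposited and under both scalings, and in 8 of 9 before batch adjustment. Leaving out a library cannot bring groups into overlap, so the 10 of 10 in those settings says nothing of stability. EILP and ALP separated in 0 of 10 members, 1 after median centring, and 7 in batch 4 alone, where each has 1 library. Slc9a9 was 2.20 to 2.41 log2 units above EILP with each library left out and 2.03 in batch 4 alone. Among the related and neighbouring genes, each in the comparison that called it, and for Slc9a9, no direction was reversed in the settings run. The directions of the other named genes were not followed by setting. Of the 8 related and neighbouring genes called between ILCp and EILP, 7 (all but Nfil3) were no longer called with only these groups fitted, 8 in batch 4 alone, and 5 (all but Aldh2, Adh5 and Nfil3) without the Plzf-cre-GFP libraries.

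Counts of calls moved more, and the cause was not tested beyond the following. Fits of part of the libraries have fewer samples. A fit without batch, on values already adjusted for it, counts degrees of freedom the adjustment had used. The fit with batch as a random effect also ran on these adjusted values, in which deviations within a batch are forced apart. Its standard errors were smaller (0.26 against 0.60 for Rxrg, ILCp versus EILP). The lowest adjusted p-values quoted over all settings came from that fit, and nothing is read from them. Between ILCp and EILP 327 genes were called higher and 271 lower. The counts were 1339 and 1708 with no batch term, 3625 and 4576 with batch as a random effect, 123 and 60 with only these groups, 130 and 124 without the Plzf-cre-GFP libraries, 47 and 550 in batch 4 alone, 176 and 104 without a trend, and 157 lower at a fold change of at least 2. Leaving out 1 library gave 128 to 316 and 96 to 309. For EILP and ALP, 419 higher and 520 lower became 1269 and 1282 with no batch term and 1707 and 1684 with a random effect, and 308 to 430 and 388 to 542 with 1 library left out. Median centring gave 804 and 395 there and moved the median of all genes by 0.22 log2 units; between ILCp and EILP it gave 279 and 390 (a shift of −0.09).

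For the reporters, 12 higher and 2 lower became 5 and 1 with no batch term, 0 and 0 with a random effect and in the upper part of genes by level, 28 and 5 without a trend, 530 lower with ILCp alone and 518 lower in batch 4 alone, 34 higher without batch 3, 6 higher after quantile normalization, and 9 to 197 and 2 to 39 with 1 library left out. Members called stayed at 0 in every setting that was run.

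Of the related genes, 5 higher and 2 lower in ILCp than in EILP became 18 and 6 with no batch term, 44 and 16 with a random effect, 2 and 1 with only these groups, 1 higher without the Plzf-cre-GFP libraries, 1 and 1 in batch 4 alone, 1 lower without a trend, 3 and 1 at a fold change of at least 2, and 1 to 7 and 1 to 2 with 1 library left out. Against ALP, 8 higher and 5 lower in EILP became 12 lower with no batch term, 16 and 14 with a random effect, 3 and 2 in the upper part of genes, and 8 to 9 and 3 to 5 with 1 library left out. Of the neighbours, 1 higher and 1 lower in ILCp became 2 and 2 with no batch term, 5 and 8 with a random effect, 0 and 0 with only these groups, 0 higher without the Plzf-cre-GFP libraries and in the upper part of genes, 0 and 2 in batch 4 alone, 0 lower without a trend or at a fold change of at least 2, and 0 to 2 and 0 to 1 with 1 library left out.

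Libraries of different stages share replicate numbers, and 17 same-numbered pairs had correlations of their deviations from −0.567 to 0.0490, 0 of them above 0.1. The batch adjustment with groups kept forces deviations within a batch apart, and 10 of the 17 pairs share a batch. These values therefore cannot show whether the numbers pair the samples. With a replicate block in place of batch, 717 genes were higher and 767 lower in ILCp than in EILP, 752 and 861 in EILP than in ALP, and 0 and 0 between reporters; related genes gave 12 and 5, and 8 lower against ALP, and neighbours 2 and 2.

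The depth of the libraries is unknown, so a gene at the zero level is not shown to be absent. Where batch 3 alone decides an EILP level, as for Serinc2 and Fbxl21, the batch and the stage's libraries cannot be told apart.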
